A study of Mus musculus with 4 samples.

Results

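The matrix metalloproteinases (MMPs), the ADAMTS proteases and their inhibitors were examined in cultures labelled as mouse cavernous endothelial cells, the lining of the blood spaces in erectile tissue. The members are the 47 gene symbols, of 23238 in the count files, that are numbered Mmp genes (23), numbered Adamts genes (19), Timp1 to Timp4, or Reck. The 4 libraries compare 2 libraries of normal glucose (replicates 1 and 2) with 2 of high glucose (replicates 2 and 4) after 72 hours. The cells of both groups were labelled as coming from mouse corpus cavernosum and were grown in medium 199 with 20% fetal bovine serum, 1% penicillin/streptomycin and 0.5 mg/ml heparin. How much glucose each medium held, whether osmolarity was controlled, and the age and strain of the mice are not stated in the labels. No label says that the replicates came from separate animals or cultures, so the p-values rest on a spread among libraries that may be purely technical.

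MMPs are zinc proteases that cut collagens, gelatins, proteoglycans and other matrix proteins, and most are secreted as inactive precursors that another protease opens. ADAMTS enzymes are secreted relatives that bind the matrix through thrombospondin repeats, cleave proteoglycans such as versican, trim procollagens, or cut von Willebrand factor. TIMPs are small secreted proteins that plug the active site, and Reck is an inhibitor anchored to the cell surface. In vessel walls this system is known for matrix turnover and for the release of endothelial and smooth muscle cells from their basement membrane.

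Total counts ran from 46571770 to 74971589 per library. Normal glucose replicate 2 was the library farthest from the 4-library median for 8221 of 16270 genes tested (50.5%), and for 17 of the 40 members tested. The label's cell type was not borne out by most of its defining markers. Of 13 endothelial markers, 8 had a mean under 1 CPM (counts per 1e+06 counts, scaled by the TMM method), and none was at 0 in all libraries. Pecam1 had 3.58 and 3.44 CPM in normal and 2.32 and 2.80 CPM in high glucose, and Cdh5 had 4.61 and 6.56, then 5.10 and 4.75 CPM. Esam was the highest of the list, with 33.3 and 46.1, then 25.6 and 29.9 CPM, and supplied most of its summed level. All 10 fibroblast markers exceeded 1 CPM, and their summed level was 9564 and 11450 CPM in normal and 11440 and 10480 CPM in high glucose, against 51.1, 67.2, 43.9 and 47.4 CPM for the endothelial list. The fibroblast markers were uneven too, from Postn at 3.02 to 4.66 CPM to Dcn at 5070 to 7598 CPM. The values below therefore describe cultures rich in connective tissue transcripts. As in any bulk sample, fewer cells of a type and less RNA per cell cannot be told apart.

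The 47 members took 2.19% and 2.165% of all counts in normal glucose and 2.32% and 2.24% in high glucose, and a few of them supplied nearly all of this. Levels of different genes were compared as CPM per kb of annotated exons. Mmp3, stromelysin 1, which degrades proteoglycans and opens other MMP precursors, averaged 3084 CPM per kb and ranked 6 of 22197 genes. Timp1, a soluble inhibitor of most MMPs, averaged 2915 (rank 7), and the collagenase Mmp13, which cuts fibrillar collagen, 2017 (rank 13). Next came the stromelysin Mmp10 with 1166 (rank 34) and Timp2 with 1133 (rank 35). Timp2 inhibits MMPs and also serves as the adaptor through which the membrane protease Mmp14 activates Mmp2.

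After these 5 genes the levels dropped. Mmp2, gelatinase A, averaged 194 CPM per kb, Mmp1a 163 and Mmp14 89.9. Every ADAMTS gene stood far lower: the highest, Adamts1, averaged 11.5 CPM per kb. Mmp3, Mmp13 and Mmp10 together made up 91.9%, 91.9%, 94.0% and 88.8% of the summed MMP level per kb in normal glucose replicates 1 and 2 and high glucose replicates 2 and 4. At the other end, 7 members had too few counts to test: Mmp7, Mmp21, Adamts15, Adamts16, Adamts18, Adamts19 and Adamts20 had at most 10 counts in any library, and Adamts18 had none.

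**Figure D1:**
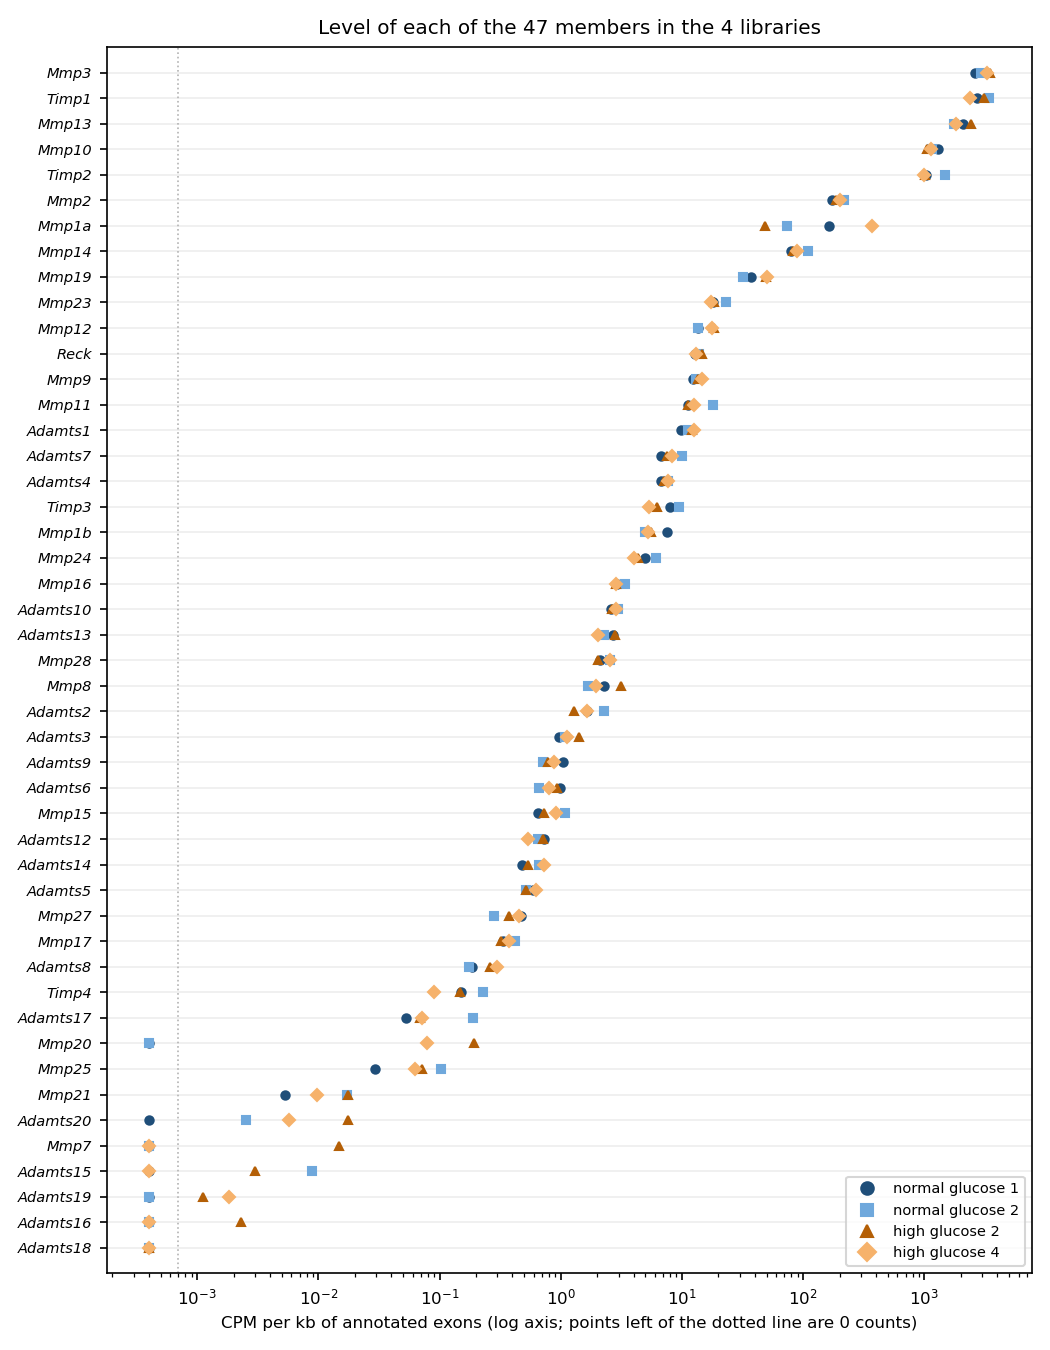
Level of each of the 47 members in each library, in CPM per kb of annotated exons on a log axis, ordered by mean. Mmp3, Timp1, Mmp13, Mmp10 and Timp2 stand at 1003 CPM per kb or more in every library, Mmp1a is the abundant member with the widest spread, and points left of the dotted line are 0 counts.

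The 3 most abundant MMPs are neighbours. Of the 23 Mmp genes, 10 lie in one cluster of 427.1 kb on chromosome 9 (GENCODE vM21, GRCm38), in the order Mmp13, Mmp12, Mmp1b, Mmp3, Mmp1a, Mmp10, Mmp8, Mmp27, Mmp20 and Mmp7, with Mmp13 starting at 7272514 and Mmp7 ending at 7699585. Neighbours differed widely in level. Mmp12 averaged 15.8 CPM per kb, Mmp1b 5.83, the neutrophil collagenase Mmp8 2.26 and Mmp27 0.396, and Mmp20 and Mmp7 at the far end lay at 0.0674 and 0.00367. The 4 genes from Mmp8 to Mmp7 were thus all lower, per kb, than the 6 genes from Mmp13 to Mmp10.

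The sequences before the starts of these genes are shown because the most abundant MMPs of the cluster share letters there, and Mmp20 is shown as a scarce neighbour without the AP-1 letters. RefSeq promoters (GRCm38.p6) matched 33 of the 47 members, with 36 start sites. Each window holds the 250 bases before an annotated start, and positions count back from -1, the base next to the start. The binding motif of AP-1, the Fos and Jun dimers long known to act on MMP promoters, was searched as TGACTCA and its reverse complement TGAGTCA. The TATA box was searched as TATAAA and TTTATA, and the PEA3 motif of Ets factors as AGGAAG and CTTCCT. The AP-1 letters stood in a window of 7 of the 33 members (7 of 36 windows, against 4.46% of all 32851 windows), and all 7 belong to the chromosome 9 cluster: Mmp13, Mmp12, Mmp1b, Mmp3, Mmp1a, Mmp10 and Mmp7. Mmp8, Mmp27 and Mmp20 had none in theirs. TATA letters stood in a window of 9 members (against 12.37% of all windows) and PEA3 letters in a window of 13 (against 29.48%), including Timp1, Timp3, Timp4 and Mmp14. A match is a description of letters, not evidence of a bound site, and Mmp7 shows that the letters also occur before a gene at or near 0.

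The AP-1 letters begin at -35 in Mmp13, -46 in Mmp3, -73 in Mmp1a and -63 in Mmp10, and TATAAA begins at -16, -7, -28 and -29. No overlap occurs between the motifs shown. The Mmp20 window holds TATAAA at -58 only. These windows lie at chr9:7272264-7272513 (Mmp13), chr9:7445572-7445821 (Mmp3), chr9:7463891-7464140 (Mmp1a), chr9:7502092-7502341 (Mmp10) and chr9:7627981-7628230 (Mmp20), all on the plus strand. They are written 5′ to 3′, with the AP-1 and TATAAA letters in capitals.
Mmp13: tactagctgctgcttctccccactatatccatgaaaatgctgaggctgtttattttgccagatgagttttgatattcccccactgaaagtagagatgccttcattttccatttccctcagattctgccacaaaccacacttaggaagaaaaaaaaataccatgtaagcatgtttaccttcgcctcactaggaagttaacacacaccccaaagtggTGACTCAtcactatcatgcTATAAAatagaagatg
Mmp3: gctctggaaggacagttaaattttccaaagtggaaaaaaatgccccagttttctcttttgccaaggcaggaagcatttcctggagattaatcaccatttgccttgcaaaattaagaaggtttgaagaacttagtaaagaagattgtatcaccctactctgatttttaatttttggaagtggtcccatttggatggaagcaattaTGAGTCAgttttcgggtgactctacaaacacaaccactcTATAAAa
Mmp1a: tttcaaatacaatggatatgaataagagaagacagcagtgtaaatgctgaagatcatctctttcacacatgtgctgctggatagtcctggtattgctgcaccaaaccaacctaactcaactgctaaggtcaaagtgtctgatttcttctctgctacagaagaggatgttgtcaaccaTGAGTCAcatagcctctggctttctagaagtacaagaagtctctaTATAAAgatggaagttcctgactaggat
Mmp10: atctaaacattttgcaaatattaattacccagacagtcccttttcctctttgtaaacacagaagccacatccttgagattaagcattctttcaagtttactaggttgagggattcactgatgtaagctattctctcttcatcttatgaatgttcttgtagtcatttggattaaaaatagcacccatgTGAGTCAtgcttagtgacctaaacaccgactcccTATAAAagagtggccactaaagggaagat
Mmp20: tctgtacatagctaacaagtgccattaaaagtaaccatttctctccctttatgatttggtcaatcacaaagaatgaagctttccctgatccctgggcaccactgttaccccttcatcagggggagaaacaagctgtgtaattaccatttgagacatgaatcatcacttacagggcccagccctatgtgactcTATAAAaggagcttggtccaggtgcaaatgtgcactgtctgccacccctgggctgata

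**Figure D2:**
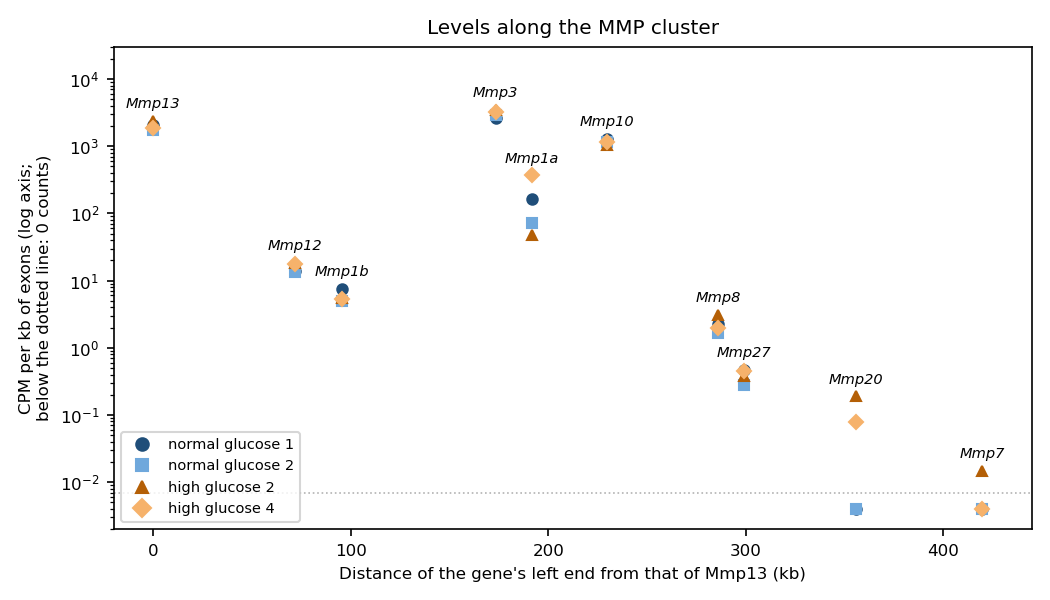
Levels of the 10 genes of the chromosome 9 MMP cluster in each library, in CPM per kb of exons on a log axis, against the distance of each gene from Mmp13 in kb. Mmp13, Mmp3 and Mmp10 stand at 1057 CPM per kb or more in every library, the 4 genes at the right at 3.12 or less, and points below the dotted line are 0 counts.

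High glucose was compared with normal glucose to ask which of these genes differed after 72 hours. No member passed the threshold of an adjusted p under 0.05 (edgeR's quasi-likelihood test, two-sided, adjusted over all 16270 genes tested), and over all genes the test called 2, or 0.0123%, both higher in high glucose. The members nearest to a call were the enamel protease Mmp20, Timp3, Mmp19 and the macrophage elastase Mmp12. At an unadjusted p under 0.05, 3 of the 40 tested members were higher (Mmp20, Mmp19, Mmp12), against 2.22% of all genes, and 1 was lower (Timp3), against 3.23%. Mmp20 passed the filter on low counts only through the high glucose libraries, so neither its place in this count nor its calls by other tests can be read against that share. Limma-voom called 0 members, against 0.0123% of all genes (0.0123% higher, 0% lower). DESeq2 called 1, Mmp20, against 0.455% of all genes (0.221% higher, 0.234% lower). EdgeR's exact test also called Mmp20 alone, against 0.676% (0.338% in each direction).

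Groups that did not overlap were common in the whole series: 16.3% of all genes tested were higher in both high glucose libraries and 16.2% lower in both, 32.5% together. Among the members, 8 were higher in both (Adamts1, Adamts3, Adamts8, Mmp3, Mmp9, Mmp12, Mmp19, Mmp20) and 7 lower in both (Adamts2, Mmp10, Mmp16, Mmp24, Timp2, Timp3, Timp4), or 15 of 40, close to that background. The fitted change was above 0 in 18 of 40 members, against 49.2% of all genes, with a median log2 fold change of -0.03 for the members and -0.0045 for all genes. Because Mmp20 passed the low-count filter only through the high glucose libraries, its place among the 8, the 15 and the 18 cannot be read against these shares. In 30 of the 40 the larger gap between replicates of one group exceeded the fitted difference, as in 80.1% of all genes.

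**Figure D3:**
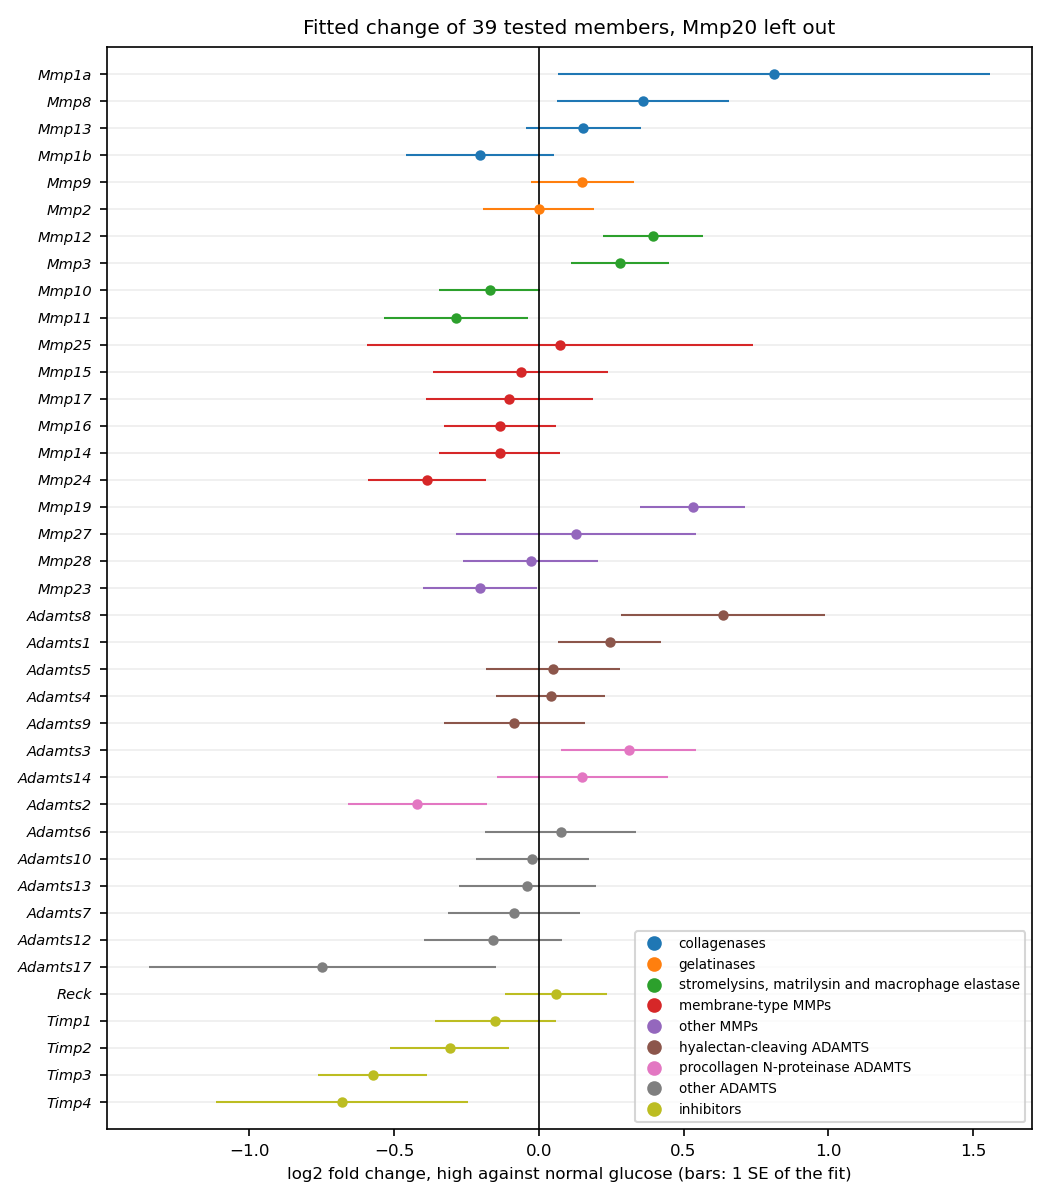
Fitted log2 fold change (high against normal glucose) with 1 standard error for 39 tested members, grouped by role. Timp1 to Timp4 lie below 0 and most ADAMTS genes within 0.5 of it, and Mmp20, with no counts in normal glucose, is left out.

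Among the collagenases, none differed beyond the spread of the replicates. Mmp13 had 5552 and 4658 CPM in normal and 6432 and 4926 CPM in high glucose, so the groups overlapped (log2 fold change 0.15, SE 0.20). Mmp8 had 5.52 and 4.04 CPM, then 7.57 and 4.76 CPM. Mmp1b, a rodent relative of human interstitial collagenase, had 10.9 and 7.16 CPM, then 8.11 and 7.61 CPM, and its exons overlap those of Mmp12 on the other strand. The neutrophil list, beside Mmp8, held 6 of 7 markers under 1 CPM. The remaining marker, Camp, had 24.5 and 10.8 CPM in normal and 35.3 and 30.4 CPM in high glucose. Its relation to the Mmp8 values was not tested.

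Mmp1a, the other interstitial collagenase relative, is typed as a polymorphic pseudogene in GENCODE vM21. It was the most erratic abundant member. It had 332 and 148 CPM in normal and 98.1 and 744 CPM in high glucose. The high glucose libraries lay on either side of both normal ones and differed 7.59-fold from each other, and the normal ones differed 2.24-fold. The fitted log2 fold change of 0.81 (SE 0.75, adjusted p = 0.991) rested on high glucose replicate 4. In each fit that leaves out a library, here and below, 1 library stands alone for its group and is assumed to vary like the others, which the spread of Mmp1a within high glucose does not bear out. Without that library it was -1.29 (adjusted p = 0.22), and without high glucose replicate 2 it was 1.64 (adjusted p = 0.00117). Without normal glucose replicate 1 it was 1.51 (adjusted p = 0.045). Over all 13 alternatives the adjusted p ran from 0.00117 to 1. Its neighbours Mmp3 and Mmp10 did not share this spread, with gaps between replicates of at most 1.12-fold. Mmp1a shares 14.1% of its 32-base stretches with Mmp1b, whose level in high glucose replicate 4 was not raised.

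The gelatinases, which digest denatured collagen and basement membrane collagen, were not called, and only Mmp9 separated between groups. Mmp2 had 579 and 729 CPM in normal and 626 and 682 CPM in high glucose, both high values lying between the normal ones. Its fitted log2 fold change was -0.000568 with a 95% interval of -0.44 to 0.44, and its sign turned under 7 of 13 alternatives. Mmp9 had 43.7 and 46.2 CPM, then 48.1 and 51.7 CPM. It was higher in both high glucose libraries, with a fitted log2 change of 0.15 (SE 0.18, adjusted p = 0.991). The members of this pair thus showed no difference larger than their error.

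The stromelysin group held opposite small differences. Mmp3 had 4734 and 5295 CPM in normal and 6269 and 5921 CPM in high glucose, higher in both (log2 fold change 0.28, SE 0.17, adjusted p = 0.991). Mmp10 had 2239 and 2011 CPM, then 1819 and 1959 CPM, lower in both (-0.17, SE 0.17). The pair shares sequence (14.1% of the stretches of Mmp3 and 11.7% of those of Mmp10), so reads could be split between them in a way the sources do not state. Mmp12, macrophage elastase, had 99.1 and 98.7 CPM, then 133 and 127 CPM, and the replicates of each group were within 1.04-fold of each other. Its log2 fold change was 0.39 (SE 0.17, unadjusted p = 0.0492, adjusted p = 0.913). The summed macrophage list was 72.1 and 75.4 CPM in normal and 79.7 and 77.8 CPM in high glucose, with 3 of 10 markers under 1 CPM and none at 0, and its part in the Mmp12 difference was not tested. Mmp11, stromelysin 3, stood out only in normal glucose replicate 2, at 50.4 CPM against 31.1 to 35.3 CPM in the other libraries.

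The membrane-type MMPs act at the cell surface, and 5 of 6 had a fitted change below 0. Mmp14, which activates Mmp2 and cuts collagen around cells, had 469 and 652 CPM in normal and 489 and 533 CPM in high glucose, with overlap. Mmp24 had 23.1 and 28.4 CPM, then 20.4 and 19.0 CPM, and was lower in both high glucose libraries (log2 fold change -0.39, SE 0.20, adjusted p = 0.971). Mmp16 had 25.2 and 29.6 CPM, then 24.9 and 25.0 CPM, a separation far smaller than the gap between its normal libraries. Mmp15, Mmp17 and Mmp25 had means under 5 CPM in both groups, with fitted changes from -0.10 to 0.07.

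Mmp19 and Mmp20 showed the widest separations among the remaining MMPs. Mmp19, a secreted protease of vessel wall and skin that cuts basement membrane proteins, had 132 and 112 CPM in normal and 176 and 176 CPM in high glucose. The high glucose libraries agreed within 1.001-fold and lay above both normal ones, a 1.445-fold difference (log2 0.53, SE 0.18, unadjusted p = 0.0184, adjusted p = 0.755). Without normal glucose replicate 1 the adjusted p was 0.00969, and over all 13 alternatives it ran from 0.00969 to 1. Mmp19 (chromosome 10, 128790910 to 128800824) shares exon sequence with the antisense gene Tmem198b, which had 31.5, 34.2, 29.3 and 36.2 CPM in the same order of libraries and overlapped between groups. Mmp23, Mmp27 and Mmp28 had fitted changes from -0.20 to 0.13.

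Mmp20, enamelysin, is known for processing tooth enamel matrix. It had 0 and 0 counts in normal glucose and 40 and 20 counts in high glucose (exact 95% Poisson intervals 28.6 to 54.5 and 12.2 to 30.9, counting error only). Set against a floor of 3 counts per library in normal glucose, its mean of 0.443 CPM in high glucose was 7.97-fold higher. The lower high glucose library was 3.75-fold above the higher normal glucose floor. Neither ratio includes the counting error of the high glucose libraries. Mmp20 passed the low-count filter only through the high glucose libraries, so its rank and p-values cannot be read against those of other genes. Its unadjusted p was 0.000903, rank 34 of 16270, with an adjusted p of 0.399. The adjusted p was 0.0201 by DESeq2, 6.9e-05 by the exact test and 0.205 by limma-voom. Over 12 alternatives it ran from 6.9e-05 to 0.412. Mmp20 (chromosome 9, 7628231 to 7674979) is flanked by Mmp27, with 0.619 to 1.04 CPM, and Mmp7, with 1 count in all. The antisense gene AV064505, which overlaps Mmp20 outside its exons, had 0 counts in each library.

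**Figure D4:**
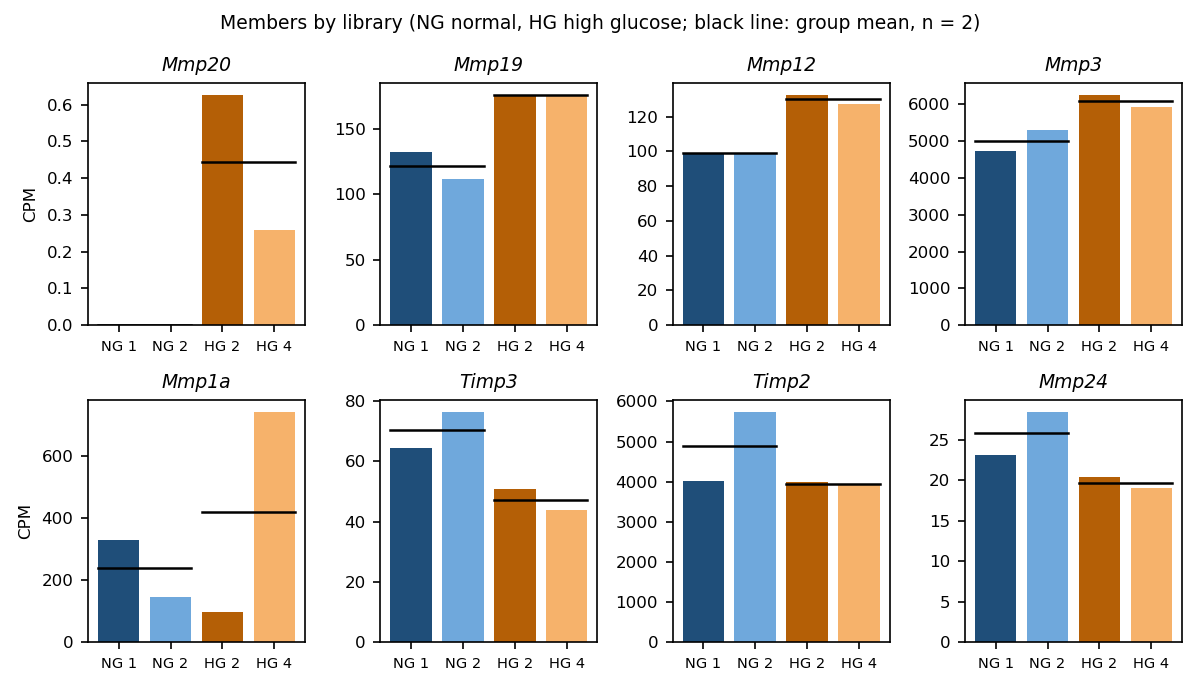
CPM of 8 members in each library (bars from 0), with the mean of each group as a black line. Mmp20, Mmp19, Mmp12 and Mmp3 are higher in both high glucose libraries, Timp3, Timp2 and Mmp24 lower in both, and Mmp1a is split within each group.

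Among the ADAMTS proteases that cleave hyalectans, the large proteoglycans versican and aggrecan, 4 of 5 tested members had a fitted change above 0 and none was called. Adamts1, which cuts versican and is known as an inhibitor of vessel sprouting, had 52.4 and 59.0 CPM in normal and 64.7 and 67.3 CPM in high glucose. It was higher in both (log2 fold change 0.24, SE 0.18, adjusted p = 0.991). Adamts4 had 32.1 and 36.9 CPM, then 34.3 and 36.7 CPM, and Adamts5, the other main aggrecanase, 6.34 and 5.57 CPM, then 5.59 and 6.75 CPM. Both of these aggrecanases overlapped between groups. Adamts9 had 15.9 and 10.7 CPM, then 11.9 and 13.2 CPM, also overlapping. Adamts8 was scarce but separated, with 0.859 and 0.803 CPM, then 1.21 and 1.38 CPM (log2 fold change 0.64, SE 0.35, adjusted p = 0.991).

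Versican itself, Vcan, the substrate of Adamts1, Adamts4, Adamts5 and Adamts9, had 528 and 493 CPM in normal and 855 and 772 CPM in high glucose. Its log2 fold change was 0.67 (SE 0.18, adjusted p = 0.523), larger than that of any of these 4 proteases. Aggrecan, Acan, was at 0.321 CPM or less in every library. The difference between Vcan and the proteases was not tested.

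The procollagen N-proteinases, which trim the amino end of fibrillar procollagens, went different ways. Adamts2, the main enzyme for type I procollagen, had 15.4 and 21.1 CPM in normal and 11.9 and 15.3 CPM in high glucose, lower in both by a narrow margin (log2 fold change -0.42, SE 0.24, adjusted p = 0.991). Adamts3, which also activates the lymphatic growth factor VEGF-C, had 5.30 and 5.85 CPM, then 7.68 and 6.14 CPM, higher in both (0.31, SE 0.23). Adamts14 had 2.51 and 3.46 CPM, then 2.81 and 3.78 CPM, with overlap.

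Among the other ADAMTS members, all 6 tested overlapped between groups. Adamts7, which cuts cartilage oligomeric matrix protein, had 41.9 and 63.3 CPM in normal and 47.02 and 52.04 CPM in high glucose. Adamts10, a protease of fibrillin microfibrils, had 21.4 and 24.7 CPM, then 21.9 and 23.4 CPM. Adamts13, which cuts von Willebrand factor, had 13.4 and 11.2 CPM, then 13.9 and 10.1 CPM, while its substrate gene Vwf was under 1 CPM in every library. The sign of each of these 3 turned under at least 2 of 13 alternatives. Adamts6 and Adamts12 had fitted changes of 0.08 and -0.16. The scarce Adamts17 had 0.408 and 1.468 CPM, then 0.534 and 0.555 CPM, so normal glucose replicate 2 was high and replicate 1 low. Its log2 fold change of -0.75 (SE 0.60, adjusted p = 0.991) was the lowest of the 40 tested members. It was -1.43 without normal glucose replicate 1 (adjusted p = 0.0433, with a range of 0.0433 to 1 over its alternatives) and 0.41 without replicate 2.

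Of the 5 inhibitors, 4 had a fitted change below 0 in high glucose, and none was called. Timp3, the matrix-bound inhibitor that also blocks ADAM17, Adamts4 and Adamts5, had 64.6 and 76.4 CPM in normal and 50.7 and 44.0 CPM in high glucose. Both high glucose values lay below both normal ones, a 1.49-fold difference (log2 -0.57, SE 0.19, unadjusted p = 0.0153, adjusted p = 0.737). Without normal glucose replicate 1 the adjusted p was 0.00576, and over 13 alternatives it ran from 0.00576 to 1. Timp2 had 4030 and 5741 CPM, then 3982 and 3908 CPM. Its separation was narrow, since normal glucose replicate 1 lay just above the high glucose libraries, and the log2 fold change of -0.31 (SE 0.21, adjusted p = 0.991) came to -0.03 without normal glucose replicate 2. Without normal glucose replicate 1 it was -0.54 (adjusted p = 0.0179, with a range of 0.0179 to 1 over 13 alternatives).

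Timp1 had 2407 and 3039 CPM in normal and 2781 and 2126 CPM in high glucose, with overlap and a sign that turned under 2 alternatives. Timp4, the least abundant TIMP, had 63 and 59 counts, then 55 and 41 counts (log2 fold change -0.68, SE 0.44, adjusted p = 0.991). Reck, which restrains MMPs at the cell surface, had 61.8 and 66.2 CPM, then 70.3 and 63.0 CPM, and overlapped. Beside these values, the summed smooth muscle and pericyte list was 653 and 950 CPM in normal and 624 and 643 CPM in high glucose, and all 10 of its markers exceeded 1 CPM. It was highest in normal glucose replicate 2, as were Timp1 to Timp4, and its part in their values was not tested.

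Timp1, Timp3 and Timp4 overlap synapsin genes on the opposite strand. Because the use of strand is not given in the sources used here, reads of both partners could be counted together where exons overlap. Timp3 shares exon sequence with Syn3, which had 129 and 97 counts in normal and 205 and 151 in high glucose, against 4585 and 3333, then 3232 and 3410 for Timp3. Timp4 shares exon sequence with Syn2, which had 19 and 40, then 29 and 47 counts. The exons of Timp1 and Syn1 do not overlap. In all, 13 of the 47 members share exon sequence with an antisense gene.

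The balance of proteases and inhibitors was described per library as the summed MMP level over the summed TIMP level, both in CPM per kb. The ratio was 1.74 and 1.30 in normal and 1.78 and 2.07 in high glucose. Both high glucose libraries lay above both normal ones, but high glucose replicate 2 exceeded normal glucose replicate 1 by less than the gap between replicates in either group. Without Mmp3 and Timp1, the most abundant of each sum, the ratios were 3.75 and 2.31, then 3.80 and 3.74, which overlapped. The numerator was 6535 and 6369, then 7391 and 7058 CPM per kb, and the denominator 3754 and 4906, then 4160 and 3402. These are RNA levels, and neither enzyme activity nor protein was measured.

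Genes that act with these proteases were listed by role, and none was called in any of the 7 lists. In plasminogen activation and proprotein convertases, which open MMP precursors, 9 of 13 tested members had a fitted change below 0. Plau, the urokinase, had 176 and 181 CPM in normal and 117 and 109 CPM in high glucose (log2 fold change -0.65, SE 0.17, adjusted p = 0.523). It was lower in both high glucose libraries. The convertase Pcsk5 had 58.3 and 55.5 CPM, then 81.7 and 96.8 CPM (0.65, SE 0.18, adjusted p = 0.555).

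Of 21 other partners of MMPs and ADAMTS enzymes, 16 were below 0, with a median of -0.16. Thbs1, which binds MMPs, was lower in both high glucose libraries by 0.62 (SE 0.17, adjusted p = 0.523), while the scarce protease trap Pzp had 0.113 and 0.0459 CPM, then 0.392 and 0.490 CPM. Membrane ADAMs were split, 5 above and 5 below 0. Adam33 had 11.9 and 14.4 CPM, then 8.71 and 8.65 CPM, and Adam23 had 8.44 and 10.7 CPM, then 14.1 and 14.7 CPM (adjusted p = 0.796 and 0.812). These 2 genes separated in opposite directions.

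ADAMTS-like proteins lack a protease domain. Of 6 tested genes of this kind, 1 separated between groups, as higher in high glucose. Of 3 tested astacin proteases 0 separated, against 32.5% of all genes in either direction. Adamtsl4 and Adamtsl5 were highest in normal glucose replicate 2, at 129 and 114 CPM. Bmp1, the procollagen C-proteinase, had 245 and 299 CPM, then 226 and 299 CPM. Of 19 tested substrates, 15 were below 0 (median -0.15). Of 18 transcription factors known to act on MMP promoters, 8 were above and 10 below 0 (median -0.03). Fosl1, an AP-1 subunit, had 266 and 545 CPM, then 260 and 290 CPM, so normal glucose replicate 2 stood apart. Jund had 120 and 268 CPM, then 60.5 and 122 CPM, and overlapped between groups.

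**Figure D5:**
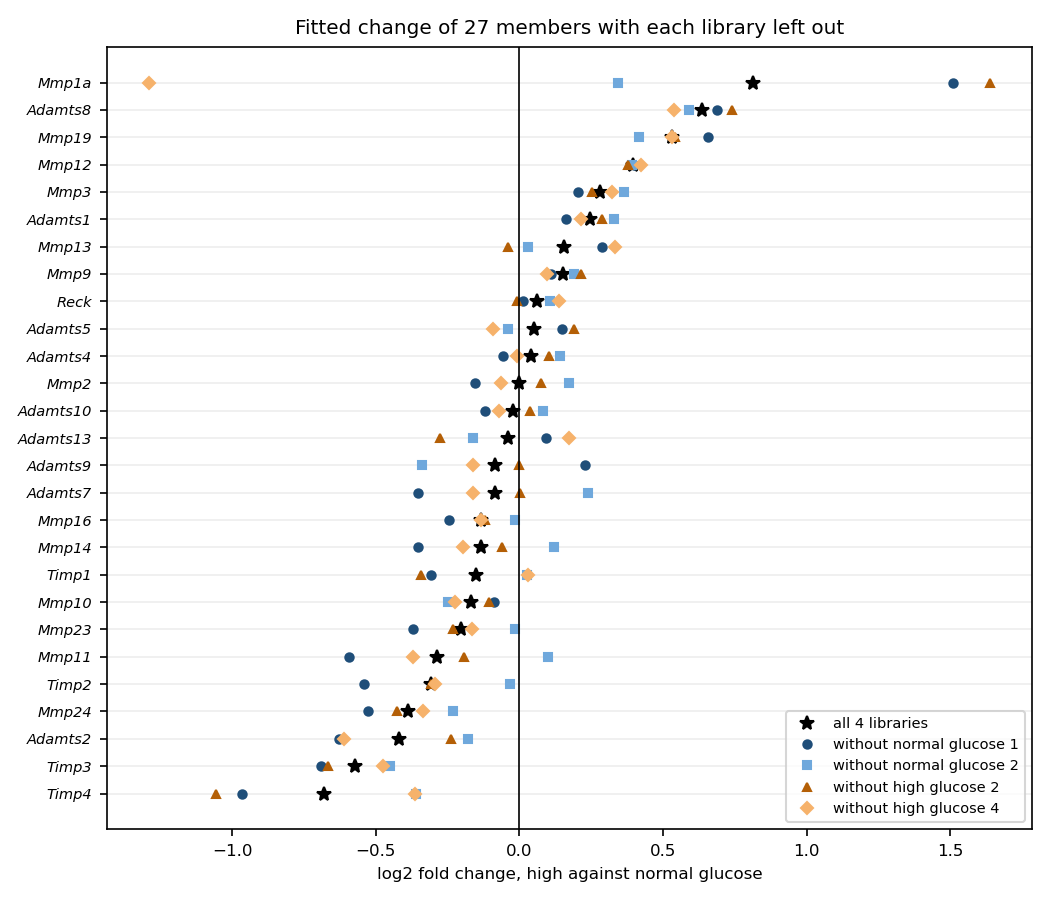
Fitted log2 fold change of 27 described members with all 4 libraries (stars) and with each library left out in turn, without Mmp20. Mmp12, Mmp19 and Mmp3 stay above 0 and Timp3, Timp4, Adamts2 and Mmp24 below it in every fit, whereas Mmp1a runs from -1.29 to 1.64.

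Which library was left out decided how many members were called. Mmp20 passed the low-count filter only through the high glucose libraries, so its calls below cannot be read against the shares of all genes. Without normal glucose replicate 1, 9 of 41 tested members passed, against 16.2% of all genes: Mmp19, Mmp1a and Mmp20 were higher (7.56% of all genes) and Adamts2, Adamts17, Mmp11, Mmp24, Timp2 and Timp3 lower (8.67%). Without normal glucose replicate 2, 0 of 40 passed, against 0.787% of all genes (0.405% higher, 0.382% lower). Without high glucose replicate 2 only Mmp1a passed, as higher, against 0.209% of all genes (0.137% higher, 0.0717% lower). Without high glucose replicate 4 only Mmp20 passed, as higher, against 0.222% (0.12% higher, 0.102% lower).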

How the data were processed

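RNA of 4 libraries was counted, 1 deposited file per library. The deposited values are whole-number counts per gene symbol, with 23282 rows and 23238 symbols, and rows sharing a symbol (35 symbols) were summed. TopHat, edgeR and the build mm10 are named, without versions or roles, in the submitters' processing notes. Per the labels' protocols, libraries were built from 1.3 µg of RNA each with a SMARTer kit. For the counting tool, its annotation and its use of strand, the sources used here give nothing.

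Counts were tested with edgeR 4.0.16 (limma 3.58.1, R 4.3.3): TMM scaling, filterByExpr (16270 genes kept), quasi-likelihood test with the group as the only term, two-sided, Benjamini-Hochberg over all genes tested, threshold 0.05. SEs are the log2 fold change over the square root of F. The test was checked on simulated counts. It called 50.7% of genes given a log2 change of 1 in either direction, and 100% of those given 2 or 3. It also called 10 unchanged genes. Smaller changes were not simulated. Chi-square per degree of freedom between libraries was at least 62.8, so no pair agreed within sampling noise. Exon lengths and positions are from GENCODE vM21, where all 47 members matched, and shared stretches are 32 bases long in its transcripts.

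Alternatives were other scalings, other filters, limma-voom, DESeq2 1.42.0 and the exact test of edgeR, rows kept apart, and leaving out each library. The members and lists were chosen with earlier results of these data known. Members described in full had a mean of at least 10 CPM, were among the 10 smallest p, or belonged to a preset list, and up to 3 genes per related list were named by smallest p. Genes outside this rule were named after their values were seen. A gene of a related list is not reported here.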

Additional observations from a re-analysis of the deposited data

How the results depend on the processing

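No paired analysis was possible because number 2 is the sole replicate number in both groups. With all libraries 2 genes were called. The count was 127 with no filter on low counts, 74 by DESeq2 and 110 by the exact test, and it ran from 35 to 2708 with a library left out. Members called higher numbered 1 (Mmp20) with no filter, by DESeq2 and by the exact test. Mmp20 had counts only in high glucose, so these calls cannot be read against the counts over all genes. Members called lower ran from 0 to 6 with a library left out. Members whose groups did not overlap (15) ran from 22 to 35 with a library left out, where a group of 1 overlaps less often by construction. The median log2 fold change of the members ran from -0.07733 to 0.10 with a library left out. The log2 difference of the MMP to TIMP ratio (0.342) ran from 0.145 to 0.569.

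Of 28 members described in full, 15 kept their direction under every alternative run and 13 turned. Mmp2 turned with upper quartile scaling (0.02207), library size scaling (0.04846), no filter (0.004678), a 5 CPM filter (0.003638) and limma-voom (0.007324), and Adamts10 with library size scaling (0.02253). The others turned only with a library left out. With a library left out, log2 fold changes ran from -0.12 to 0.08174 for Adamts10, -0.28 to 0.17 for Adamts13, -0.05593 to 0.14 for Adamts4, -0.09348 to 0.19 for Adamts5, -0.35 to 0.24 for Adamts7 and -0.34 to 0.23 for Adamts9. They ran from -0.59 to 0.10 for Mmp11, -0.04107 to 0.33 for Mmp13, -0.35 to 0.12 for Mmp14, -1.29 to 1.64 for Mmp1a, -0.16 to 0.17 for Mmp2, -0.009276 to 0.14 for Reck and -0.34 to 0.02991 for Timp1. The cause was not tested. Other scalings moved the median of all genes by at most 0.038. The floor of 3 counts limits what can be said of members near 0.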
